A study of Homo sapiens with 4 samples.

Results

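The KRAB zinc finger genes around ZNF83 on the long arm of human chromosome 19, bands 19q13.41 to 19q13.42, are described here in HEK-293T cells with and without THUMPD1. A list of 38 symbols was taken by name, because ZNF83 was known from an earlier reading of the same libraries to be among the larger rises after THUMPD1 loss. The list runs along the chromosome from ZNF175 to ZNF331. Of the 38, 37 have a row in the table of 18917 genes, ZNF525 was not analysed here, and 29 passed the filter of 1 CPM or more (counts scaled to a fixed total per library) in 2 or more libraries. The contrast of KO with WT served to choose the cluster, so its values for the members are given as a description.

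RNA was sequenced from 4 libraries, 2 WT and 2 THUMPD1 KO, of a human embryonic kidney line that the labels call HEK293 and the study HEK-293T. All were grown in DMEM with serum and 2 mM glutamine, and nothing says whether the 2 libraries of a genotype came from separate cultures. THUMPD1 is the adaptor with which the acetyltransferase NAT10 places N4-acetylcytidine in leucine and serine tRNAs. The KO cells were made with CRISPR-Cas9 and a pair of guides, sorted for GFP and then sorted as single cells, so the genotype and the clone cannot be told apart. Library totals ran from 7875722 to 11362363 counts, and 3 counts in a library, taken as the floor, equal 0.259 to 0.391 CPM. THUMPD1 had 356 and 468 counts in WT and 71 and 58 in KO, a log2 fold change of −2.93 (SE 0.17, Benjamini-Hochberg adjusted p = 1.27e-12 by the quasi-likelihood test of edgeR), as the labels state. The 8 kidney and epithelial markers listed for the line were all tested and summed to 622 to 643 CPM in WT and 622 to 662 CPM in KO. Of the 8, the kidney transcription factor LHX1 was called higher in KO, at 37 and 27 counts against 6 and 6 in WT. LHX1 passed the filter on low counts only through the KO libraries, where it is high, so some difference was built in. The keratin KRT18 was called lower at a log2 fold change of −0.35. The immune markers CD3E, LYZ and CD14 had no more than 2 counts in any library. Fibroblast markers summed to 26.8 to 29.7 CPM in WT and 25.2 to 29.5 CPM in KO, mostly COL1A1, and the hepatocyte markers ALB, APOA1 and TTR had no more than 3 counts in any library.

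KRAB zinc finger proteins are the largest family of human transcription factors. An array of C2H2 zinc fingers reads DNA, in many members a sequence within a transposable element, and the KRAB domain binds TRIM28 (KAP1), which brings the histone methyltransferase SETDB1, HP1 proteins and histone deacetylases to silence the site. The genes lie in clusters that grew by tandem duplication, and the clusters of chromosome 19 hold the greatest number of them.

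The cluster's proteins, read from canonical GENCODE 44 coding sequences, held 7 to 26 zinc fingers of the C2H2 pattern, with a median of 13, in 462 to 970 residues. A KRAB A box pattern was found in 37 of the 38, the exception being ZNF83, whose canonical protein has 516 residues and 14 fingers. The members of highest protein identity to ZNF83 were ZNF160 and ZNF347, both at 64.9%. The closest pair of the cluster was ZNF28 and ZNF468, at 91.2%, followed closely by ZNF611 and ZNF600 at 89.1%. Such likeness can divide reads among copies. Of the transcript stretches of 75 bases in each member, a median of 99.8% occurred in no other gene of the table, 36 of 38 members had at least 95%, and ZNF808 had the lowest share at 88.6%. For ZNF83 the share was 100%.

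The promoters of the members past the threshold described further on are printed first because a stretch of them recurs. Each is the RefSeq window of GRCh38.p14 from 250 bases before to 50 after an annotated start, read 5′ to 3′ on the gene's strand. RefSeq windows were matched for 32 of the 38 members. Capitals mark the letters GGAAGCGGA or AAGATGGC or their reverse complements TCCGCTTCC and GCCATCTT, which were chosen after these windows had been looked at. The first set of sequences belongs to ZNF83 and to the genes whose windows resemble it. ZNF83 has 2 windows, at chr19:52690447-52690746 and chr19:52638306-52638605 on the minus strand. ZNF808 is at chr19:52527418-52527717 on the plus strand, ZNF611 at chr19:52734995-52735294 on the minus strand and ZNF320 at chr19:52897645-52897944 on the minus strand. A second ZNF320 window, at chr19:52897586-52897885, overlaps the first and is not printed.
ZNF83, upstream start: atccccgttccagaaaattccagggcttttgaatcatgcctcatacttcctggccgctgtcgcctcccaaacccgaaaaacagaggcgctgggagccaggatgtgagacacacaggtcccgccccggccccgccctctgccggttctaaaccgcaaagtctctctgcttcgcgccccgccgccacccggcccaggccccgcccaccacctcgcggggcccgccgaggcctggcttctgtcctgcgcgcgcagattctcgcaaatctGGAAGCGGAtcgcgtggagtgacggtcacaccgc
ZNF83, downstream start: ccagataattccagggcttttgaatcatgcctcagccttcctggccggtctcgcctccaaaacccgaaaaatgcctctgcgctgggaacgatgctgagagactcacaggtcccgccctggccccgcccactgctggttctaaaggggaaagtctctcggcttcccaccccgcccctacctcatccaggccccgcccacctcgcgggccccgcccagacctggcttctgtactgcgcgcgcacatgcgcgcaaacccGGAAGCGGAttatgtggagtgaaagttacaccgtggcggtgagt
ZNF808: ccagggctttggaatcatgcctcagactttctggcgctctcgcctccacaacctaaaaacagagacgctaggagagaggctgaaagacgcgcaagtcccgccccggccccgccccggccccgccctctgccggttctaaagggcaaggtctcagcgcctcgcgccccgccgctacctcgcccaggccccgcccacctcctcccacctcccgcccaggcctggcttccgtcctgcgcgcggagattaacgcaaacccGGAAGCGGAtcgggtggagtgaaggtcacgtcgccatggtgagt
ZNF611: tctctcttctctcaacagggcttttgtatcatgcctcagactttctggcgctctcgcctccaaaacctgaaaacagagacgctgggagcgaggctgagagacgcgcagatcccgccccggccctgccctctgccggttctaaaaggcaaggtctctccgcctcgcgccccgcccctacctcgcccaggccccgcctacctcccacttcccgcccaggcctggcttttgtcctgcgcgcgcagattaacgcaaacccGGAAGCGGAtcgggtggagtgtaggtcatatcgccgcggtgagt
ZNF320: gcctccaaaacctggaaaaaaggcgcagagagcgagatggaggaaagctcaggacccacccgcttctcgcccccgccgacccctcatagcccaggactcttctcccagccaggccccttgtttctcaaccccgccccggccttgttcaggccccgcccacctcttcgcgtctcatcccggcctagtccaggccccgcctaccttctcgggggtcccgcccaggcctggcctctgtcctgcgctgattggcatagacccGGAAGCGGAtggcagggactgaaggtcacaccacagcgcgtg
In these 5 windows GGAAGCGGA begins 6 to 16 bases after the annotated start, and in the second ZNF320 window, whose start lies further downstream, the same letters begin 51 bases before it. Aligned to the upstream ZNF83 window, the downstream ZNF83 window was identical at 83.7% of 288 paired bases, ZNF808 at 84.2% of 279, ZNF611 at 83.8% of 290 and ZNF320 at 74.7% of 233 (70.4% of 226 for its second window).

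The other 2 members past the threshold, ZNF615 and ZNF614, lie next to each other at the start of the cluster. Their windows are at chr19:52008162-52008461 and chr19:52028330-52028629, both on the minus strand. Both windows hold AAGATGGC or its reverse complement, before the annotated start, and lack GGAAGCGGA.
ZNF615: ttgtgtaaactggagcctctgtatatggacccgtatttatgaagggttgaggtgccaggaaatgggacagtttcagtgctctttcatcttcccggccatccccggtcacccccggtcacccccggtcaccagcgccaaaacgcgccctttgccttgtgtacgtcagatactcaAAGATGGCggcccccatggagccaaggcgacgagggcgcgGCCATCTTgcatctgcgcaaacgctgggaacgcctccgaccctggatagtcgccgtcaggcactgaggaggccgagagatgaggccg
ZNF614: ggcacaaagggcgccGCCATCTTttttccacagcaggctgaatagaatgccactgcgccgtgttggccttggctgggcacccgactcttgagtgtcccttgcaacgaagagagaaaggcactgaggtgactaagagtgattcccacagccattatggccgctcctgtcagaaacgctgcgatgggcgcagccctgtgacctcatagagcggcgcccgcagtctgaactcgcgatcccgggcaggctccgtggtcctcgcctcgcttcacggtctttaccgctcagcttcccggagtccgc
Counting either strand, GGAAGCGGA occurred in the windows of 13 of 32 members (40.6%), against 17 of 373 other ZNF genes (4.56%) and 377 of 27305 genes with a window (1.38%). The 13 members were ZNF528, ZNF808, ZNF701, ZNF83, ZNF611, ZNF320, ZNF816, ZNF347, ZNF677, ZNF845, ZNF765, ZNF761 and ZNF813. AAGATGGC occurred in ZNF613, ZNF615, ZNF614 and ZNF432, which is 12.5% of the members with a window, against 4.56% of other ZNF genes and 3.52% of all genes. GGGCGG, the letters of a GC box, occurred in 81.2% of the members, 67.6% of other ZNF genes and 48.3% of all genes. Member windows held a median of 23 CpG dinucleotides, and all windows a median of 14. These letters are matches in a window and were not read as binding sites.

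ZNF83 was low in WT and several fold higher in KO. WT libraries gave 26 and 50 counts of it and KO libraries 165 and 184, or 3.39 and 4.55 CPM against 14.3 and 17.3 CPM. Both KO libraries stood well above both WT libraries. Its mean went from 3.97 ± 0.819 CPM to 15.8 ± 2.14 CPM (SD, n = 2 each), a 3.89-fold difference. The log2 fold change was 1.96 (SE 0.25, 95% interval 1.45 to 2.47), the 37th largest of the 1154 genes past the threshold upwards. Leaving out each library in turn gave 1.79 to 2.21. Per kilobase of canonical transcript, ZNF83 ranked 24th of the members in WT at 0.894 CPM per kb, and stood at 3.55 CPM per kb in KO, between the KO levels of ZNF175 (3.44) and ZNF28 (3.61).

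Across the cluster, 6 of the 29 members tested (20.7%) rose in KO at an adjusted p under 0.05 by edgeR's quasi-likelihood test, and 0 fell. Over all 13128 genes tested, 8.79% were called higher and 12.1% lower. Because this contrast chose the cluster, nothing is read from the members' count against that background. The 6 were ZNF83, ZNF808, ZNF320, ZNF611, ZNF615 and ZNF614. Every member tested but ZNF761 and ZNF813 had an estimate above 0, yet for 19 of the 29 the unadjusted 95% interval included 0. In 18 members both KO libraries exceeded both WT libraries and in 0 both lay below, where the same ordering held for 30.4% and 30.0% of all genes tested.

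**Figure D1:**
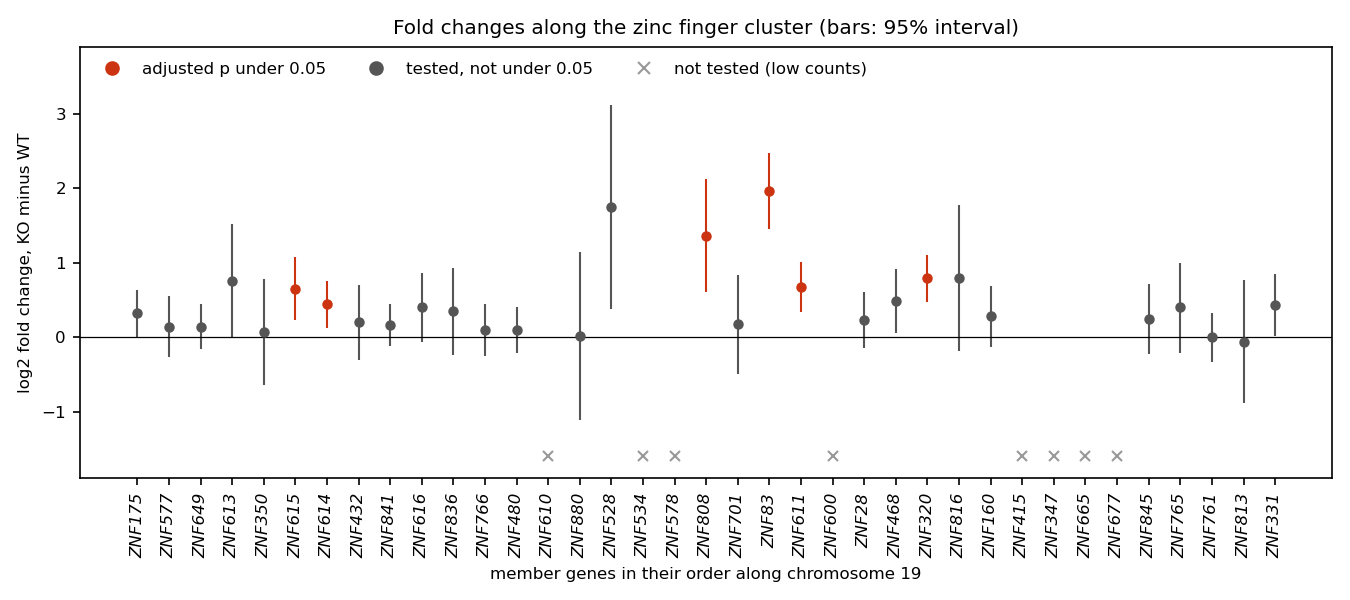
Log2 fold changes of KO against WT (vertical axis) for the 37 members in the table, in their order along chromosome 19 (horizontal axis). Points are estimates and bars 95% intervals, red marks an adjusted p under 0.05, and crosses mark the 8 members with too few counts to test. ZNF83 has the highest estimate at 1.96 and ZNF813 the lowest at −0.06.

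The neighbours of ZNF83 on the chromosome differed among themselves. ZNF611, the next gene after it, had 14.0 and 14.6 CPM in WT and 23 and 22.6 CPM in KO, with no overlap between genotypes. Its log2 fold change was 0.67 (SE 0.16, 95% interval 0.34 to 1.01), and 0.65 to 0.71 when each library was left out. ZNF611 protein is known to bind SVA retrotransposons. Its nearest relative, ZNF600, had 0 counts in 3 libraries and 5 in the second KO library, and shares 3.77% of ZNF611's stretches of 75 bases.

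ZNF701, the gene before ZNF83, had 6.13 and 4.09 CPM in WT and 5.70 and 5.63 CPM in KO. The genotypes overlapped, and the log2 fold change was 0.17 with an interval from −0.50 to 0.84. A difference the size of that of ZNF611 lies within this interval and could not be detected at this depth. The promoter window of ZNF701 also holds GGAAGCGGA.

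ZNF808, the gene before ZNF701, had 18 and 26 counts in WT and 73 and 62 in KO. These are 2.35 and 2.37 CPM in WT and 6.31 and 5.82 CPM in KO, again without overlap. The mean went from 2.36 ± 0.013 to 6.06 ± 0.342 CPM, a log2 fold change of 1.36 (SE 0.37, 95% interval 0.60 to 2.12). Leaving out libraries gave 1.30 to 1.41, but without the first KO library ZNF808 no longer passed the threshold. ZNF808 is a repressor of the MER11 family of endogenous retroviral elements, and its loss in people is a cause of pancreatic agenesis. Because 4.41% of its stretches of 75 bases also occur in ZNF701, the division of reads between these neighbours is uncertain.

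ZNF320, placed after ZNF468, had 14.5 and 16.4 CPM in WT and 27.0 and 26.5 CPM in KO, and the genotypes did not overlap. Its mean went from 15.4 ± 1.35 to 26.8 ± 0.394 CPM, 1.73-fold, with a log2 fold change of 0.79 (SE 0.16, 95% interval 0.47 to 1.11). It kept its side of the threshold without any single library, at 0.71 to 0.89.

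At the start of the cluster, ZNF615 had 11.5 and 10.6 CPM in WT and 20.8 and 13.8 CPM in KO. The first KO library was far above the second, which gave an SD of 4.96 around the KO mean of 17.3 CPM. The log2 fold change of 0.65 (SE 0.21, 95% interval 0.23 to 1.08) was 0.32 without the first KO library and 0.92 without the second, and ZNF615 was not past the threshold without the first KO library or without the second WT library.

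ZNF614, beside it, had 20.5 and 16.9 CPM in WT and 24.9 and 25.4 CPM in KO. The genotypes did not overlap, but the WT libraries lay further apart than the KO libraries. Its log2 fold change was 0.44 (SE 0.15, 95% interval 0.12 to 0.75), the smallest of the 6, and it passed the threshold without the first WT library (0.57) but not without any of the other 3, the lowest being 0.29 without the second WT library.

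**Figure D2:**
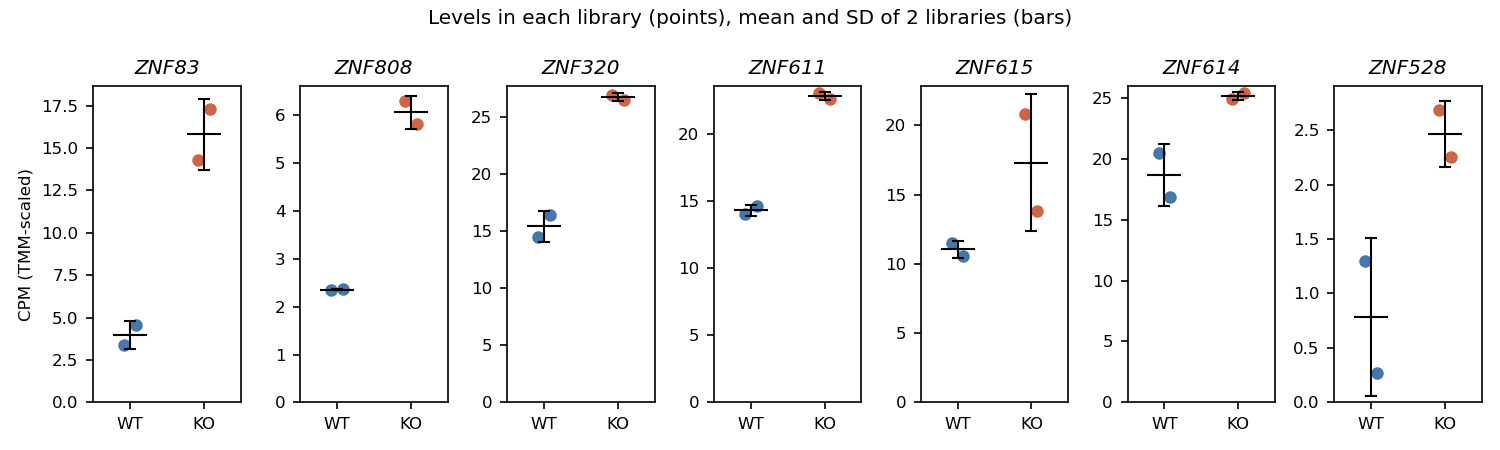
CPM (vertical axes, each starting at 0) in the 2 WT and 2 KO libraries for the 6 members past the threshold and for ZNF528. Points are libraries, horizontal lines means and bars SD. KO points lie above WT points in all 7 panels, and ZNF615 has the widest KO spread (20.8 and 13.8 CPM).

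ZNF528 had the second highest estimate of the cluster but did not pass the threshold. It had 10 and 3 counts in WT and 31 and 24 in KO. The second WT library stood at the floor of 3 counts. The log2 fold change of 1.75 had an SE of 0.66 and an interval from 0.38 to 3.12, and it was 0.91 without the second WT library and 3.13 without the first, where it passed the threshold. Other members with estimates above that of ZNF615 were ZNF816 at 0.79 (interval −0.19 to 1.77; 19 and 18 counts in WT, 44 and 34 in KO) and ZNF613 at 0.75 (interval −0.01 to 1.52). ZNF468 at 0.48 and ZNF331, an imprinted gene at the far end of the cluster, at 0.43 had intervals just above 0 (from 0.05 and from 0.01) and did not pass after adjustment.

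The 4 members with the highest WT level per kb did not pass the threshold, and the next, ZNF614 and ZNF611, did. ZNF841 had the highest WT level per kb, 7.01 CPM per kb, with 24.9 and 29.5 CPM in WT and 30.1 and 31.2 CPM in KO. Its log2 fold change was 0.16, with an interval from −0.12 to 0.44. ZNF649 followed at 6.94 CPM per kb, with 21.6 and 22.7 CPM in WT, 25 and 23.9 CPM in KO and a log2 fold change of 0.14 (interval −0.16 to 0.44). The upper bound of both intervals equals the estimate of ZNF614.

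ZNF761, next at 5.45 CPM per kb, had 21.0 and 22.4 CPM in WT and 18.6 and 24.9 CPM in KO, with a log2 fold change of 0.00. Its KO libraries lay on either side of the WT libraries. ZNF480, with 4.61 CPM per kb, had 23.1 and 20.7 CPM in WT and 22.3 and 24.0 CPM in KO, a log2 fold change of 0.09 with overlap. ZNF614 followed at 4.04 CPM per kb in WT and stood at 5.43 in KO. The WT libraries of ZNF841 (6.42 and 7.60 CPM per kb) enclosed those of ZNF649 (6.78 and 7.10), so the order of these neighbours is within the spread. ZNF761 (5.27 and 5.62) lay apart from both and from ZNF480 (4.86 and 4.35), whereas the WT libraries of ZNF480 overlapped those of ZNF614 (4.42 and 3.66).

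**Figure D3:**
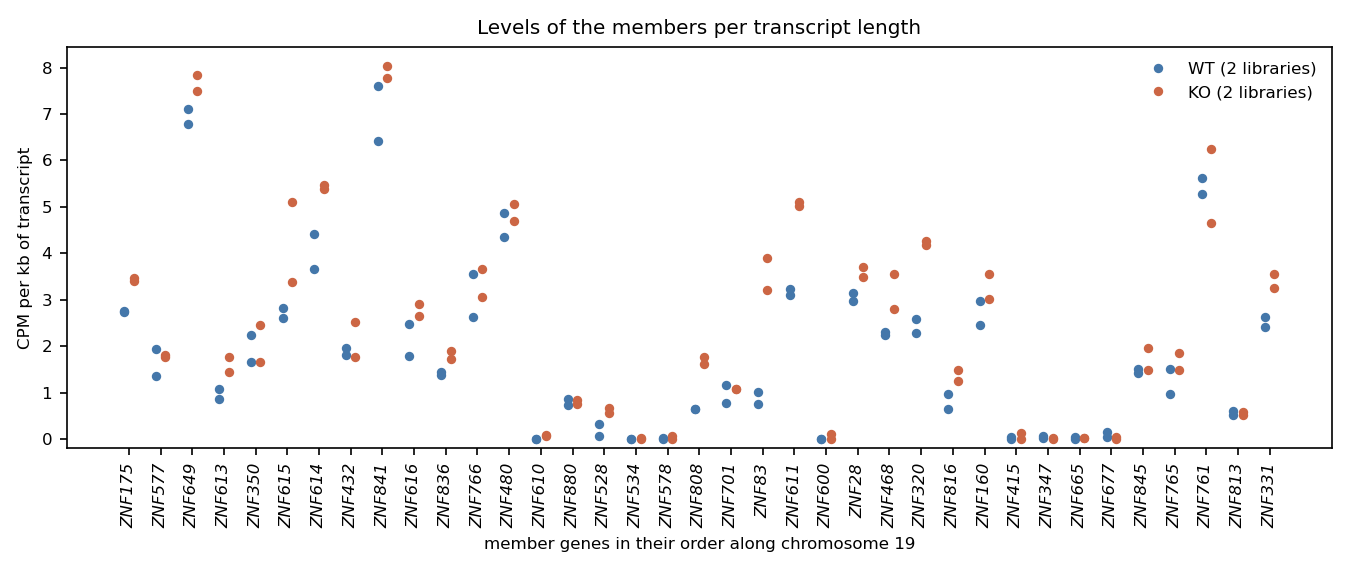
Levels per kilobase of canonical transcript, in CPM per kb (vertical axis), of the 37 members in the table in their order along chromosome 19 (horizontal axis), each library as a point. ZNF841 and ZNF649 lead in WT at 7.01 and 6.94 on average, 8 members lie near 0, and ZNF83 goes from 0.763 and 1.02 in WT to 3.21 and 3.89 in KO.

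Of the relatives nearest to ZNF83 in protein sequence, ZNF160 was expressed and ZNF347 was near the floor. ZNF160, reported as a repressor of the receptor gene TLR4, had 101 and 120 counts in WT and 155 and 168 in KO (12 ± 1.59 and 14.6 ± 1.69 CPM), with a log2 fold change of 0.28 and an interval from −0.13 to 0.69. ZNF347 had 4 and 2 counts in WT and 0 and 2 in KO. ZNF677 has the same 4 counts as ZNF347 in the table, and neither was tested.

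The other members not tested were ZNF610, ZNF534, ZNF578, ZNF600, ZNF415 and ZNF665. Of the 8, ZNF610, ZNF534, ZNF415 and ZNF665 had no more than 3 counts in any library, and no count among the 8 was above 5. Most of them lie in 2 runs, around ZNF534 before ZNF83 and from ZNF415 to ZNF677 after it. At such counts a small difference between genotypes was not detectable for them, and no rise to higher counts was seen in KO.

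The remaining members tested had estimates between −0.06 and 0.40. They include ZNF350, known as ZBRK1 and a partner of BRCA1, at 0.07, and ZNF175, known as OTK18, at 0.32. ZNF616 and ZNF765 both stood at 0.40, with intervals from −0.07 to 0.86 and from −0.21 to 1. ZNF813 was lowest, at 3.26 and 3.73 CPM in WT and 3.20 and 3.57 CPM in KO. Spans of ZNF880 and ZNF610, of ZNF28 and ZNF600, and of ZNF577 and the receptor gene FPR3 overlap in RefSeq, so their counts are uncertain.

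As a list, the 29 members tested had a median log2 fold change of 0.32, where all genes tested had 0.01. Without ZNF83 the median was 0.30. The 17 members tested before ZNF83 had a median of 0.20 with 3 called, and the 11 after it 0.40 with 2 called. Between libraries of the same genotype the members' median difference was 0.04 in WT and −0.08 in KO, and each of the 4 pairings of a KO with a WT library gave 0.26 to 0.37. Their summed level was 316 and 317 CPM in WT and 415 and 400 CPM in KO.

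The cluster did not stand apart in these figures from the other ZNF genes of the chromosome. The 162 other ZNF genes of chromosome 19 that were tested had a median of 0.33, with 41 (25.3%) called higher and 5 (3.09%) called lower. The 210 ZNF genes tested on other chromosomes had a median of 0.12, with 24 called higher and 19 lower. The 738 other genes tested on chromosome 19 had a median of −0.11, with 33 called higher and 139 lower. No test of these differences was made. In 16 tested genes of a list of 35 from 19p12, the most similar cluster on the short arm and part of the 162 above, the median was 0.34, with 3 called higher and 1 lower.

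The 3 genes with the greatest change on the 19p12 list were ZNF726, ZNF682 and ZNF91. ZNF726 had 2 and 4 counts in WT and 35 and 35 in KO, with a log2 fold change of 3.25 (SE 0.68, Benjamini-Hochberg adjusted p = 0.0011 by the quasi-likelihood test of edgeR) that rests on WT libraries near the floor. It passed the filter on low counts only through the KO libraries, where it is high, so some difference was built in. ZNF682 went the other way, with 21 and 18 counts in WT and 6 and 5 in KO, a log2 fold change of −2.09, and passed the filter only through the WT libraries. ZNF91, a repressor of SVA elements, had 6.91 and 4.82 CPM in WT and 13.0 and 9.48 CPM in KO, a log2 fold change of 0.96 (SE 0.27).

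Base composition moved with the fold change over all genes. In 20 bins of tested genes by GC content of the canonical transcript, the median log2 fold change went from 0.19 in the lowest bin to −0.25 in the highest. The members tested had a median GC content of 40.9%, against 48.4% for all genes tested, and all lay in bins whose medians were 0.07 to 0.12. With that trend removed, the members' median was 0.26. The part of GC content in the members' values was otherwise not tested. Among members, the 6 called had 38.4% to 41.7% GC (median 40.7%) and the 23 not called 37.5% to 45.3% (median 41.4%).

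The finger counts of the called members lay within the range of the rest. They had 10 to 23 fingers (median 13.5) and the tested members not called 7 to 26 (median 13). Stretches of 75 bases found in no other gene made up 88.6% to 100% of the called members' transcripts and 95.6% to 100% of the others', with ZNF808 and ZNF611 (95.1%) below that second range. Of the 6, 1 lies on the plus strand, ZNF808, and 12 of the 23 others tested do. Members whose promoter window holds GGAAGCGGA had a median log2 fold change of 0.67 over the 11 tested, 4 of them called, and the 15 tested whose window lacks it had 0.32. For AAGATGGC the medians were 0.54 over 4 with it and 0.34 over 22 without, and for GGGCGG 0.32 over 20 with it and 0.43 over 6 without. Within the 11 with GGAAGCGGA, ZNF701, ZNF761 and ZNF813 had estimates of 0.17, 0.00 and −0.06. GGAAGCGGA and AAGATGGC were chosen from the windows of called members, so these medians are a description.

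The partners through which KRAB proteins act were measured in a list of 30 genes, which also holds the KRAB zinc finger genes ZFP57 and ZNF445. Of the 29 tested, 2 (6.9%) were called higher and 5 (17.2%) lower, with a median of −0.06. Over all genes tested the shares were 8.79% and 12.1%, so nothing is read from the counts of this list. TRIM28, the corepressor that binds KRAB domains, averaged 479 ± 27.8 CPM in the WT and 454 ± 15.4 CPM in the KO libraries, a log2 fold change of −0.08 (SE 0.06, 95% interval −0.21 to 0.05) that did not pass the threshold. SETDB1, the methyltransferase that marks histone H3 lysine 9, rose from 74.1 ± 0.917 to 92.8 ± 2.86 CPM, a log2 fold change of 0.33 (SE 0.08, adjusted p = 0.00619 by edgeR's quasi-likelihood test). CHD4, the remodelling ATPase of the NuRD complex, fell by 0.42 on the log2 scale, and DNMT3A, a de novo DNA methyltransferase, fell by 0.33. ATRX was also higher, at 0.26, and UHRF1, MPHOSPH8 and HDAC1 were also lower, at −0.30, −0.29 and −0.22.

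Genes of other families in and beside the cluster had a median below 0. Those tested had a median transcript GC content of 59.7%, and all tested genes of 58.5% to 60.2% GC had a median of −0.14. The part of GC content in their values was not tested. Of 35 listed neighbours, 12 were tested, with a median of −0.18. Against 8.79% called higher and 12.1% lower over all genes tested, 0 were called higher and 2 (16.7%) lower. The 2 were MYADM, a membrane protein of the myelin and lymphocyte family, at −0.43 (SE 0.09) and MBOAT7, a lysophosphatidylinositol acyltransferase, at −0.26 (SE 0.09). Within the interval itself, the 12 genes in the table that are no member include formyl peptide receptors and SIGLEC genes, and only PPP2R1A, the scaffold subunit of protein phosphatase 2A, was tested. It had 168 and 159 CPM in WT and 141 and 146 CPM in KO, a log2 fold change of −0.19 (SE 0.07) that did not pass.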

How the data were processed

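Each library's counts, whole numbers per gene symbol and not normalized, were used as the authors deposited them. The labels name hg19, a ribosomal RNA depletion kit for total RNA and paired-end reads. The study's methods describe STAR alignment to GRCh38, RSEM, another kit and 3 samples per genotype. Which of these made the counts is not given in the sources used here, nor whether strand was used, and a further sample per genotype was not analysed here. A table of the authors' own comparison (fold changes, errors and p-values) was not used.

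Counts were tested in R 4.3.3 with edgeR 4.0.16 (glmQLFit, glmQLFTest, TMM scaling) over the 13128 genes that reached 1 CPM in 2 or more libraries, and p-values were adjusted by the Benjamini-Hochberg method (threshold 0.05). On simulated counts for these genes, 187 of 200 changed genes were recovered with 11 false calls. Recovery was not tested separately for the members or by size of fold change. CPM use TMM-scaled totals. Log2 fold changes are KO minus WT. The p-values measure the spread between these libraries only, which may be technical, and an exact permutation test of 2 against 2 cannot go below p = 0.333. The floor covers counting error only.

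The members and all lists were chosen with earlier results of these data known. Values per library are given for ZNF83, the members past the threshold, the 5 highest per kb in WT, the tested neighbours of ZNF83 and its closest relatives by protein. TRIM28, SETDB1 and the 3 largest changes past the threshold are named from the other lists. Further genes were named after their values were seen. Genes were placed by RefSeq (GRCh38.p14), and 18561 of 18917 symbols matched. Transcript length, GC and proteins come from GENCODE 44 canonical transcripts, translated with Biopython 1.88. The KRAB pattern was widened after ZNF880 had been missed by it. Alternatives used DESeq2 1.42.0, limma 3.58.1 and the settings named in the closing section. An immune marker of the lists is not reported here.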

Additional observations from a re-analysis of the deposited data

How the results depend on the processing

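ZNF83, ZNF320 and ZNF611 were past the threshold under every alternative fit and with any single library left out. ZNF808 was past it under every other alternative but not without the first KO library. The 6 members called higher became 2 (ZNF808 and ZNF83) when a log2 fold change of 1 or more in size was also asked (the fold limit), 4 at an adjusted p under 0.01 or with DESeq2, 5 with limma-voom, 7 with the replicate number as a block (ZNF528 added), 8 with library size alone, and 3 to 7 with 1 library left out, the lowest without the first KO library. Replicate numbers are only shared across genotypes: deviations of same-numbered libraries correlated at r = 0.0257 over 13128 genes, and the block moved the count of neighbours called from 2 to 5 and changed no other count by more than 1.5 times. Members called lower were 0 throughout (0 to 0 with a library left out). Their median of 0.32 was 0.41 with library size alone, which put the median of all genes at 0.09, 0.26 with the GC trend removed (an alternative chosen after seeing the data) and 0.30 to 0.42 with a library left out. Corepressor genes called were 7, against 4 at an adjusted p under 0.01, 0 with the fold limit and 3 to 9 with a library left out, the lowest without the first KO library. The 4 genes called of the 19p12 list were 7 with library size alone, 2 with DESeq2, with at least 10 counts in every library or with the fold limit, 1 at an adjusted p under 0.01, and 1 to 5 with a library left out. The 2 neighbours called were 1 with DESeq2, limma-voom or an adjusted p under 0.01, 0 with the fold limit, and 0 to 3 with a library left out. The cause of these shifts was not tested. Among members not called, the log2 fold change with a library left out spanned 0 in ZNF577 (−0.12 to 0.40), ZNF350 (−0.23 to 0.32, and −0.11 without the first WT library), ZNF432 (−0.09 to 0.43), ZNF766 (−0.09 to 0.36, and −0.03 without the first KO library), ZNF880 (−0.12 to 0.13, and −0.08 without the first KO library), ZNF701 (−0.11 to 0.47), ZNF761 (−0.23 to 0.20) and ZNF813 (−0.14 to 0.05, and 0.02 without the first KO library). Signs also turned in ZNF350 (−0.02) and ZNF880 (−0.14) with limma-voom, in ZNF350 (−0.03), ZNF480 (−0.02) and ZNF880 (−0.08) with the GC trend removed, and in ZNF813 (0.03) with library size alone. Depth limits the less abundant members: those tested below about 5 CPM had intervals wider than 1 log2 unit.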
